A study of Mus musculus with 4 samples.

Results

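Groups of closely spaced PU.1 peaks were examined in activated B cells that lack miR-155. A group was a run of at least 2 neighbouring peaks of the miR-155 knockout list on chromosomes 1 to 19 in which each gap, from the end of one peak to the start of the next, was at most 10000 bp. The rule found 262 groups holding 550 of the 4094 knockout peaks on these chromosomes, and the other 3544 peaks stood alone. The groups were chosen by the positions of the knockout peaks, so their number, sizes and gaps are a description.

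PU.1, encoded by Spi1, is a transcription factor of the ETS family that binds purine-rich DNA with a GGAA core. It acts in B cells and in myeloid cells, and regulatory regions of these lineages can hold several of its sites close to each other. miR-155 is a microRNA induced when B cells are activated, and the mRNA of PU.1 is one of its targets. The mature microRNA that the knockout lacks is shown here because the 3 genotypes differ by this molecule or by its target site. Capitals mark the seed, bases 2 to 8 from the 5′ end, which pairs with target mRNAs (RefSeq, GRCm38.p6).
mmu-miR-155-5p: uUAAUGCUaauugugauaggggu

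PU.1-bound DNA was recovered by chromatin immunoprecipitation and sequenced (ChIP-seq) from splenic B cells of 3 kinds of mice: wild type, the miR-155 knockout miR-155[-/-], and a PU.1 line written PU.1[155-/155-]. The last is called a PU.1 KI in the labels and knock-in here; its PU.1 gene has a changed miR-155 target site. All cells were isolated by negative selection and kept for 96 h with lipopolysaccharide (LPS, 5 µg/ml) and interleukin-4 (IL-4, 10 ng/ml) before fixation with 2% formaldehyde. Neither strain, age, sex nor number of mice is stated, and each title calls its sample a mix. There was 1 library per genotype, so every difference between genotypes is one between single libraries with no replicate check and no p-value. Identity of the cells could not be read from these lists, which hold no expression values.

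The authors' deposited lists held 1132 wild-type, 2094 knock-in and 4153 knockout peaks, of which 18, 31 and 59 lay on the sex chromosomes and were left out. A list gives each peak a score with no stated definition, used here only to rank peaks within that list. The score percentile is the rank of a peak's score as a percent of the length of its deposited list, with tied peaks given their mean rank. The lists hold no read counts, so depth is unknown, and a site without a call may be bound below the authors' threshold. A peak that overlaps one of another list by at least 1 bp is called found in that list, or its counterpart. Coordinates are on mm9 and counted from 1. The genes at these positions and the DNA sequence under the peaks were not analysed here, because the gene table at hand is of another build.

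Most knockout groups were pairs. There were 240 groups of 2, 19 of 3, 2 of 4 and 1 of 5 peaks. Groups spanned a median of 4460.5 bp (interquartile range 2284.75 to 7514), from 639 bp to 25403 bp. Their 288 inner gaps had a median of 3598 bp and a range of 16 to 9996 bp. In 19 groups the whole span was under 1000 bp, and in 25 it was over 10000 bp. Grouped peaks had a median width of 309 bp, against 294.5 bp for single peaks.

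The 10000 bp limit cut through a continuous range of gaps. The last 3 gaps inside it measured 9953 bp on chromosome 1, 9964 bp on chromosome 19 and 9996 bp on chromosome 10. In each of these, one peak was called in all 3 genotypes and its neighbour in the knockout alone. The first 3 gaps outside it measured 10042 bp on chromosome 17, 10169 bp on chromosome 6 and 10189 bp on chromosome 15. None of the 6 peaks at these outer gaps had a wild-type counterpart.

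All 19 chromosomes had groups, from 5 on chromosome 18 to 26 on chromosome 1. The share of knockout peaks in groups was highest on chromosome 9, at 41 of 221 peaks (18.6%, exact 95% interval 13.7 to 24.3). It was lowest on chromosome 13, at 14 of 197 (7.11%, 3.94 to 11.6). Over the 19 chromosomes, this share and the number of knockout peaks per Mb had a Spearman rho of 0.33, and all points came from the same library.

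The group with the most members lay on chromosome 9 from 65383061 to 65393751 (chr9:65383061-65393751), with 5 knockout peaks in 10691 bp. The first, from 65383061 to 65383525, had a knockout score of 655.94, at percentile 99.9 of its list. It was also among the strongest peaks of the other genotypes, at percentile 98.8 of the wild-type list and 98.4 of the knock-in list. A second strong peak from 65390040 to 65390448 stood at percentile 93.0 in the knockout, 60.2 in the wild type and 87.2 in the knock-in. The peak 233 bp before it, from 65389434 to 65389806, was called in the knockout (score 159.38) and the knock-in (score 100.41) and not in the wild type. The remaining members, from 65383911 to 65384266 and from 65393395 to 65393751, were called in the knockout alone, with scores of 73.16 and 73.06. In this group the wild type had the 2 highest-scoring knockout positions, the knock-in the 3 highest, and the knockout 2 weaker ones besides.

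The widest group lay on chromosome 9 from 58093930 to 58119332, with 4 peaks in 25403 bp. The knockout peaks from 58114197 to 58114622 and from 58119028 to 58119332 scored 177.2 and 187.48, and both were called in all 3 genotypes. Their wild-type scores were 77.99 and 117.57, and their knock-in scores 106.45 and 82.25. The order of these 2 peaks thus differed between the lists: the second was the higher in the wild type and knockout, the first in the knock-in. The members from 58093930 to 58094314 and from 58104201 to 58104376 were called in the knockout alone, at percentiles 44.3 and 41.8.

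The other group of 4, on chromosome 10 from 7553512 to 7572009, had no peak called in all 3 genotypes. Its highest member, from 7566946 to 7567191, scored 118.07 in the knockout and 91.96 in the wild type and was not called in the knock-in. The member from 7561576 to 7561917 scored 101.97 in the knockout and 58.05 in the knock-in and was not called in the wild type. The outer members scored 66.88 and 50.27 and were called in the knockout alone; the latter was close to the lowest score of its list, 50.2. The wild type and the knock-in each had 1 peak in this span, at different positions.

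**Figure D1:**
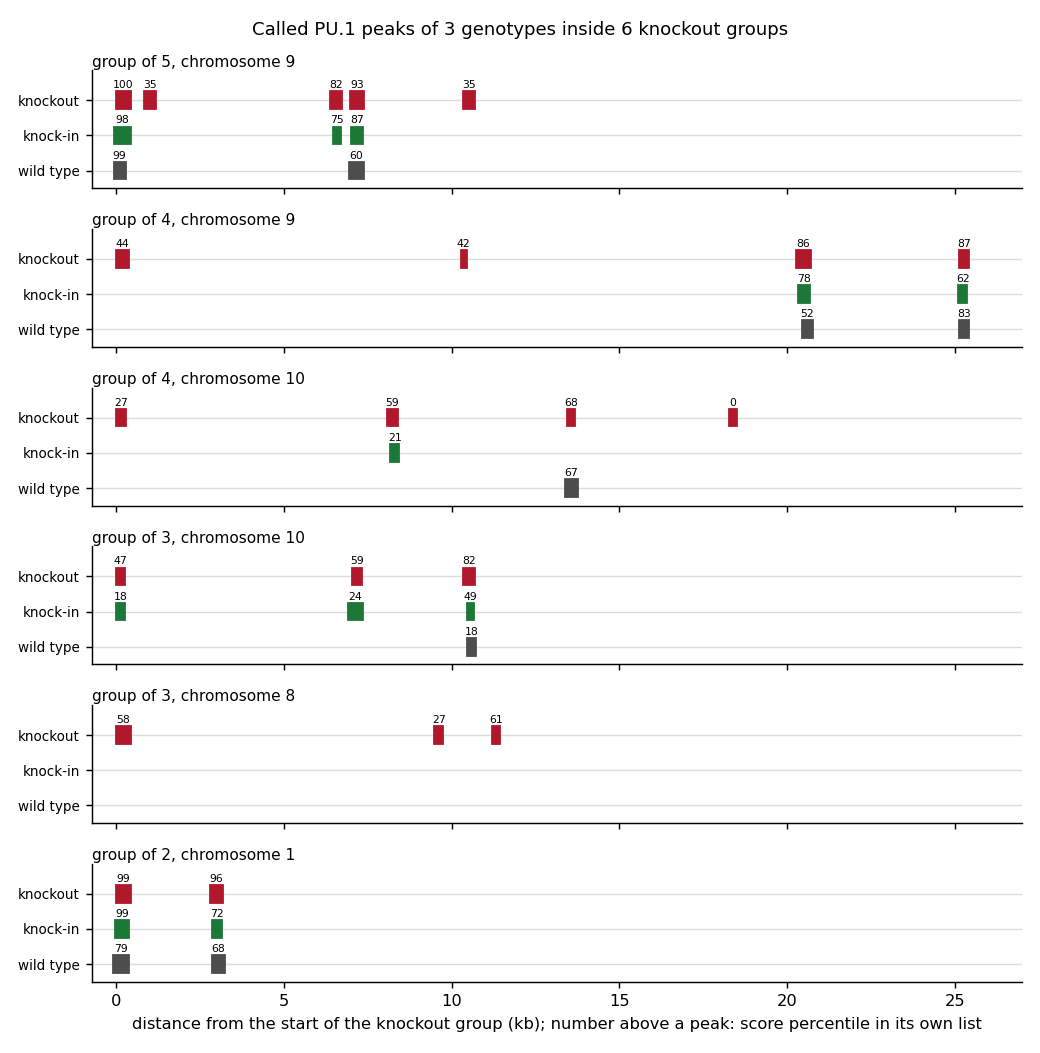
PU.1 peaks of the wild type (grey), knock-in (green) and knockout (red) in 6 named knockout groups; the x axis is distance in kb from the first knockout peak, and the number above a peak is its score percentile in its own list. The group of 5 on chromosome 9 has 2 wild-type and 3 knock-in peaks, and the group of 3 on chromosome 8 has none.

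Among groups of 3, that on chromosome 10 from 95826520 to 95837205 was the one in which every member was called in the knock-in. Its members scored 84.21, 101.97 and 160.85 in the knockout and 56.62, 59.33 and 72.86 in the knock-in, in the same order. The wild type had only the last, which scored 56.97 there. On chromosome 14 from 103876546 to 103886680, the peak from 103886183 to 103886680 was near the top of all lists, at percentile 99.5 in the knockout, 99.7 in the wild type and 99.1 in the knock-in. Its group also held a peak from 103877164 to 103877608, called in the knockout (125.23) and knock-in (69.53), and one called in the knockout alone (101.97). On chromosome 3 from 95325177 to 95334074, members scoring 138.23 and 145.08 were called in all 3 genotypes, and the third, at 99.28, in the knockout alone.

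The 5 pairs called at both peaks in all 3 genotypes with the highest mean knockout percentile held strong neighbours. The first was on chromosome 1 from 64972271 to 64975455, with knockout scores of 495.23 and 308.62, wild-type scores of 108.4 and 93.42 and knock-in scores of 267.73 and 93.97. The next, on chromosome 16 from 52417270 to 52419349, had 543.21 and 200.11 in the knockout, 174.88 and 126.07 in the wild type and 135.95 and 88.32 in the knock-in. In both pairs the left peak was the higher in every list. On chromosome 5 from 141490193 to 141494661 the order was not shared: the right peak was higher in the knockout (255.07 against 228.28) and knock-in (83.6 against 59.49), and the left in the wild type (137.29 against 64.98). A pair of chromosome 7 (100025137 to 100027420) and one of chromosome 4 (59816271 to 59817965) kept their order in all 3 lists.

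Of the 19 groups of 3, 3 had no wild-type or knock-in peak. The one on chromosome 8 from 91150338 to 91161777 had knockout scores of 97.81, 67.12 and 103.05. That on chromosome 15 from 66648636 to 66657244 had 64.06, 118.48 and 77.94, and that on chromosome 12 from 104571055 to 104581966 had 111.97, 63.7 and 66.93. Their members stood between percentiles 21.7 and 68.0 of the knockout list. Of the 240 pairs, 63 had no peak in the other lists. Over all knockout peaks, 57% overlapped neither list, and no matching share was computed for neighbours farther apart. The numbers of such groups are thus a description. Of the 5 such pairs with the highest summed percentiles, both leading ones were on chromosome 5. One (66461157 to 66466515) scored 145.57 and 142.42 at its peaks and the other (145038082 to 145044793) 125.05 and 162.17. A pair of chromosome 18 (79443004 to 79453328) scored 161.56 and 114.38. A pair of chromosome 7 (90794011 to 90799591) scored 164.07 and 101.97, and one of chromosome 8 (74148963 to 74152523) scored 143.03 and 111.42. These 10 peaks stood between percentiles 59.4 and 83.0, so none reached the highest-scoring 10% of the list.

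The smallest gaps were shorter than a peak, and whether such pairs are separate bound regions was not tested. On chromosome 15 from 62655391 to 62656226 the gap was 16 bp, and both peaks (57.85 and 92.55) were called in the knockout alone. On chromosome 10 from 37057947 to 37058660 it was 89 bp, and both peaks were also called in the knock-in, with scores of 59.49 and 52.07, and neither in the wild type.

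A longer list has closer neighbours, so the lists were compared at equal length. In the whole lists, 13.4% of knockout peaks were grouped (exact 95% interval 12.4 to 14.5), against 70 of 1114 wild-type peaks (6.28%, 4.93 to 7.87) and 134 of 2063 knock-in peaks (6.50%, 5.47 to 7.65). The wild-type list had 35 groups, all pairs, and the knock-in list 66, of which 2 were of 3 peaks. These intervals, here and below, cover counting error over peaks only and are too narrow to the extent that neighbours depend on each other.

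Cut to the wild-type length of 1114 peaks, the knockout list had fewer groups than the wild type. The mean over all possible subsets of 1114 knockout peaks, computed in closed form without drawing subsets, was 21.6 groups with 3.93% of peaks, below the wild-type interval. The wild-type list thus had 1.62 times as many groups. The 1114 highest-scoring knockout peaks formed 26 groups with 4.76% of peaks (3.58 to 6.18). The wild-type share exceeded that of these highest-scoring peaks by 1.53 percentage points, with an interval of -0.43 to 3.5 that includes 0. The 1044 knockout peaks that overlapped a wild-type peak formed 31 groups, and subsets of that size gave a mean of 19.02. These peaks were chosen by overlap with the wild-type list, so their groups largely repeat its pairs and are not separate support.

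The knock-in list was closer to the subset mean. Subsets of 2063 knockout peaks gave a mean of 71.4 groups with 7.11% of peaks, within the knock-in interval, and the knock-in list had 0.92 times as many groups. The 2063 highest-scoring knockout peaks formed 84 groups with 8.29% of peaks (7.13 to 9.56). The knock-in share differed from that of these peaks by -1.79 percentage points (interval -3.43 to -0.16), but the interval included 0 in 4 of the 7 alternative settings. The 1530 knockout peaks that overlapped a knock-in peak formed 46 groups, and subsets of that size gave a mean of 40.1. These groups likewise largely repeat those of the knock-in list. Thinned to 1114 peaks, the knock-in list itself gave a mean of 19.6 groups, also below the 35 of the wild type. At equal length, then, the knockout list was not more grouped than the wild-type list; against the knock-in list it was more grouped when cut by score, with the limits given above.

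**Figure D2:**
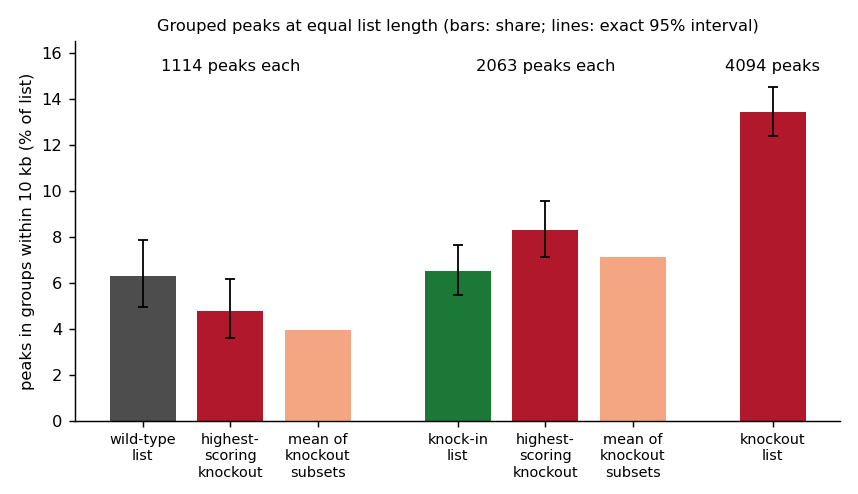
Share of peaks lying in groups within 10 kb (y axis, percent of the list) in the wild-type and knock-in lists, in the knockout list cut to the same length by score or averaged over all subsets, and in the whole knockout list; lines are exact 95% intervals. At 1114 peaks the wild-type share of 6.28% stands above the subset mean of 3.93%, and at 2063 peaks the knock-in share of 6.50% stands near 7.11%.

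Most groups of the other genotypes had every peak called in the knockout. Whenever this was so, the peaks also fell in 1 knockout group, which their closeness in their own list nearly ensures. The counts that follow thus reflect the overlap of the lists. No matching share was computed for sets of peaks farther apart. Of the 35 wild-type pairs, 31 had both peaks in 1 knockout group, and the other 4 had 1 peak called in the knockout. Of the 66 knock-in groups, 47 had every member in 1 knockout group, 17 had some members called in the knockout and 2 had none. The knockout list had 113 of the 134 grouped knock-in peaks (84.3%, exact 95% interval 77.0 to 90.03), against 1418 of the 1929 single ones (73.5%, 71.5 to 75.5). For the wild type the shares were 94.3% of grouped peaks (86.0 to 98.4) and 93.7% of single peaks (92.0 to 95.1). Of the 35 wild-type pairs, 15 had both peaks called in the knock-in. The matching share for other wild-type peaks was not computed, so this count is a description.

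Inside the spans of the 262 knockout groups lay 173 wild-type and 225 knock-in peaks. A wild-type peak was present in 140 groups (53.4%, exact 95% interval 47.2 to 59.6), and at least 2 in 33. A knock-in peak was present in 175 groups (66.8%, 60.7 to 72.5), and at least 2 in 48. For scale, of neighbouring knockout peaks over 10 kb apart, 44% had at least 1 of the pair overlapping a wild-type peak and 60.9% at least 1 overlapping a knock-in peak. Both other genotypes were present in 119 groups, the knock-in without the wild type in 56, the wild type without the knock-in in 21, and neither in 66 (25.2%, 20.1 to 30.9). The knock-in had more peaks than the wild type in 82 groups, as many in 146 and fewer in 34. For these combinations of the genotypes, no matching shares were computed for neighbours farther apart. The knock-in list was also the longer, at 2063 peaks against 1114 in the wild type.

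The complete group was called in a minority of cases. All members were called in the wild type in 27 groups (10.3%), each of them a pair, and in the knock-in in 39 (14.9%). Of the 3787 neighbouring knockout peaks over 10 kb apart, both were found in the wild type in 6.28% and in the knock-in in 13.4%. All members were called in both the wild type and the knock-in in 12 groups (4.58%, exact 95% interval 2.39 to 7.86). No matching share was computed for neighbours farther apart. Of the 19 groups of 3, 7 had no member in the wild type, 9 had 1, 3 had 2 and 0 had all 3. For the count of 0, the exact 95% interval reaches 17.6%. In the knock-in the same groups had no member in 3 cases, 1 in 9, 2 in 6 and all 3 in 1. Over all knockout peaks, 25.5% overlapped a wild-type peak and 37.4% a knock-in peak. No matching counts were computed for runs of 3 peaks farther apart, so incomplete calling is not shown to be particular to these groups.

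Among the 115 pairs with no wild-type counterpart, the knock-in had no peak in 63, 1 in 46 and both in 6. Among the 98 pairs with 1 wild-type counterpart these numbers were 18, 60 and 20, and among the 27 pairs with both they were 3, 12 and 12. The median percentile of the higher peak was 52.3, 79.8 and 90.5 in these 3 classes, and that of the lower peak 23.5, 42.7 and 55.9. Pairs called more completely in the wild type had higher knockout scores at both peaks. Single knockout peaks showed both trends too, so they are not particular to pairs. Of single peaks missing from the wild type 23.2% were called in the knock-in, and of those found in it 78.6%. Their median knockout percentiles were 39.4 and 83.8.

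Grouped knockout peaks were found in the wild type more often than single ones. Over all 4094 knockout peaks, 25.5% overlapped a wild-type peak. Of grouped peaks 172 of 550 did (31.3%, exact 95% interval 27.4 to 35.3), and of single peaks 872 of 3544 (24.6%, 23.2 to 26.1). The difference was 6.67 percentage points, with an interval of 2.55 to 10.96. For the knock-in, where 37.4% of all knockout peaks overlapped one, the shares were 224 of 550 (40.7%, 36.6 to 45.0) and 1306 of 3544 (36.9%, 35.3 to 38.5). That difference of 3.88 points had an interval of -0.56 to 8.4, which includes 0.

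Peaks were also compared within score classes. The median percentile was 52.3 for grouped and 49.8 for single peaks, a difference of 2.53 (interval -1.10 to 6.49). With a gap of 5000 bp the difference was 5.23 (0.83 to 9.81). Both intervals take the median of single peaks as fixed. When the knockout list was split into 10 score classes, grouped peaks were found in the wild type more often in 8 of the 10, with a mean difference of 4.97 points and a range of -1.75 to 12.04. In class 5 the wild type had 10 of 51 grouped peaks (19.6%, exact 95% interval 9.82 to 33.1) and 33 of 358 single peaks (9.22%, 6.43 to 12.7). In class 10 it had 60 of 70 (85.7%, 75.3 to 92.9) and 300 of 343 (87.5%, 83.5 to 90.8). The intervals of grouped and single peaks overlapped in both of these classes. For the knock-in, grouped peaks were found more often in 7 of 10 classes, with a mean difference of 2.36 points.

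**Figure D3:**
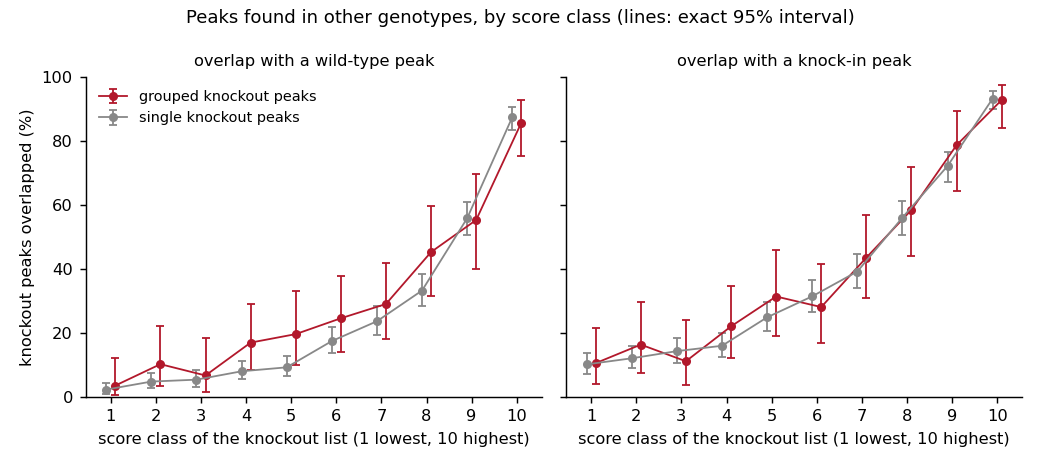
Share of grouped (red) and single (grey) knockout peaks that overlap a wild-type peak (left) or a knock-in peak (right), in percent, by score class of the knockout list from 1 (lowest) to 10 (highest); lines are exact 95% intervals. The share is higher in class 10 than in class 1 in both, and grouped peaks lie above single peaks in 8 of 10 classes for the wild type and 7 of 10 for the knock-in.

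By genotype, 127 grouped peaks were called in all 3 lists (23.1%, against 19.3% of single peaks; 19.8% of all knockout peaks) and 281 in the knockout alone (51.1% against 57.9%; 57% of all). Those shared with the wild type and not the knock-in made up 8.18% of grouped peaks (exact 95% interval 6.03 to 10.8) and 5.28% of single ones (4.56 to 6.06), intervals that just overlap. Those shared with the knock-in and not the wild type made up 17.6% and 17.5%. Median scores of grouped and single peaks were close in the classes with a knock-in peak or in the knockout alone: 187 and 186 for peaks in all 3 lists, 109 and 103 for those shared with the knock-in alone, and 73.0 and 71.8 for those in the knockout alone. For peaks shared with the wild type alone they were 96.8 and 111.

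Knockout peaks missing from the wild type were next examined by their neighbourhood. In groups that held a wild-type counterpart at another member, 35 of 127 such peaks were called in the knock-in (27.6%, exact 95% interval 20.01 to 36.2). In groups without one it was 62 of 251 (24.7%, 19.5 to 30.5), and among single peaks 621 of 2672 (23.2%, 21.7 to 24.9). These intervals overlap. A peak beside a site that the wild type also had was thus not detectably more often called in the knock-in. Median knockout percentiles of the 3 sets were 45.8, 38.0 and 39.4.

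The highest peak of a group stood at a median percentile of 71.0 and the second at 36.0, with a median difference of 23.6. Sorting by score sets such a gap by itself: taken as pairs of neighbours, the higher and lower had median percentiles of 70.2 and 35.0 (difference 24.3) within 10 kb and 71.0 and 29.1 (29.7) farther apart. Close neighbours were thus no more uneven than distant ones. In 87 of 262 groups both leading peaks lay in the upper 50% of the knockout list, in 112 only the first did, and in 63 neither did. A peak of the highest-scoring 10% was present in 65 groups, and at least 2 of them in 5. The left peak was the higher in 131 of 240 pairs. Over the 288 neighbours within groups, the scores of left and right peak had a Spearman rho of 0.11, against -0.01 over the 3787 neighbours farther apart, all from 1 library.

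The peak that another genotype also had was usually the strongest of its group. Of the 113 groups with some and not all members in the wild type, the highest-scoring peak had the wild-type counterpart in 94 (83.2%, exact 95% interval 74.99 to 89.6), where the group sizes alone would give a mean of 48.8%. In the 98 pairs of this kind, the peak with the counterpart had a median percentile of 78.0 and its neighbour 49.0. For the knock-in it was 110 of 136 groups (80.9%, 73.3 to 87.1; group sizes 49.5%), with median percentiles of 75.7 and 37.1 in 118 pairs. In 1 group of each set the highest score was tied, and this was counted against the pattern.

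The same ordering was found between peaks farther apart. Of neighbouring knockout peaks over 10 kb apart with 1 wild-type counterpart, the higher-scoring peak had it in 1215 of 1427 cases (85.1%, exact 95% interval 83.2 to 87.0), and of those up to 10 kb apart in 99 of 118 (83.9%, 76.0 to 90.02). With the knock-in the shares were 81.2% (79.4 to 83.0) and 80.7% (73.3 to 86.8).

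**Figure D4:**
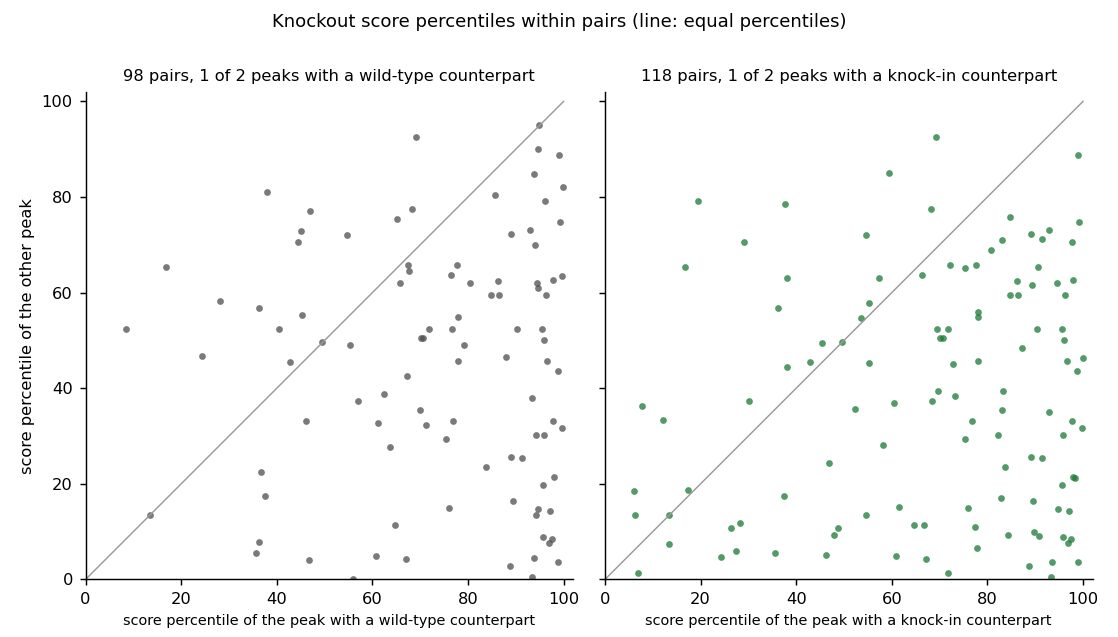
Knockout score percentile of the peak with a counterpart (x axis) and of its neighbour without one (y axis), for the 98 pairs with 1 wild-type counterpart (left) and the 118 with 1 knock-in counterpart (right); the line marks equal percentiles. Most points lie under the line, 79 of 98 and 94 of 118.

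In the knockout, gaps were most frequent per kb of gap length at the shortest distances. The list had 47 gaps of up to 1 kb, 39 of 1 to 2 kb, 92 of 2 to 5 kb and 110 of 5 to 10 kb, which is 47, 39, 30.7 and 22.0 gaps per kb of gap length. From 10 to 20 kb there were 22.4 per kb and from 20 to 50 kb 15.8. No break was seen at 10 kb. In the wild type the numbers were 5, 12, 9 and 9 gaps up to 10 kb, and in the knock-in 7, 11, 22 and 28.

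**Figure D5:**
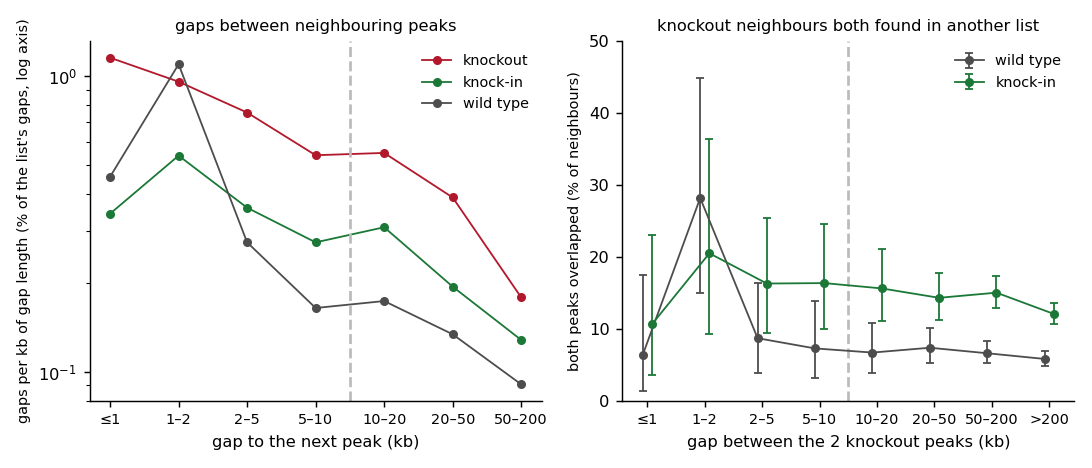
Left, gaps between neighbouring peaks per kb of gap length, as a percent of each list's gaps (log axis), by gap class; right, the percent of neighbouring knockout peaks of which both overlap a wild-type (grey) or knock-in (green) peak, with exact 95% intervals. The dashed line marks 10 kb; at 1 to 2 kb, 28.2% of neighbours are both found in the wild type.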

How the data were processed

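PU.1 ChIP-seq was made from 1 library per genotype and 1 input sample, which was not analysed here. The authors deposited 1 peak list per immunoprecipitation with a score per peak, whose definition is not stated; MACS, Bowtie and Trim Galore are named, with build mm9, per the submitters' processing notes. Their versions, settings and control are not stated in the sources at hand. The last knockout peak of chromosome 1 ends at 197028196, past the last gene of that chromosome in the GRCm38 table (195291439), so that table was not used to place peaks.

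Sex chromosomes were left out and 1 was added to each start. Peaks were grouped at gaps of at most 10000 bp, and peaks overlapping by at least 1 bp were called shared. Shares have exact (Clopper-Pearson) 95% binomial intervals. Intervals of differences between 2 shares combine both. The interval of a share minus a subset mean covers that share only, with the mean taken as fixed. For the median percentile, the interval is that of the grouped median, with the single-peak median taken as fixed. Subset means were computed from hypergeometric probabilities. Since 1 library stands for each genotype, no p-value was computed. The members and regions were chosen with earlier results of these data known. Groups were named by rule: 4 or more peaks; the 5 with most wild-type and the 5 with most knock-in peaks, with ties (33 groups had 2 wild-type peaks, 46 had 2 knock-in peaks) broken by summed knockout percentile; the 5 highest by summed score percentile without either; the 5 highest pairs in all 3 lists; the widest; and the 2 smallest gaps. Values came from scipy 1.17.1, pandas 2.3.3 and numpy 2.4.6 under Python 3.11.15, and plots from matplotlib 3.10.9. The functions for grouping, for overlap by at least 1 bp and for subset means passed a check on simulated peaks.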

Additional observations from a re-analysis of the deposited data

How the results depend on the processing

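The number of groups and the share of peaks in them follow the gap and the list by construction. Gaps of 2000, 5000 and 20000 bp gave 86, 173 and 426 knockout groups with 4.20%, 8.57% and 22.9% of peaks, and the higher-scoring 50% of each list gave 84 groups with 8.33%. Joining peaks up to 500 bp apart first gave 12.2% of peaks, and 237 groups. The other 94 of 103 alternative values stayed within the interval of the value reported (for the number of groups, within 1.5 times), and none changed sign. The wild-type excess over knockout subsets ranged from 1.91 to 2.49 percentage points, against 2.35 in the setting reported. It was already 1.91 points with a gap of 2000 bp, and was 2.27 and 2.21 with gaps of 5000 and 20000 bp. Most of the excess was thus present at gaps of up to 2000 bp, and a separate excess at longer gaps is not shown. The interval of the excess, which takes the subset mean as fixed, excluded 0 in every alternative. The higher share of grouped peaks found in the wild type ranged from 4.26 to 10.4 points. The same difference for the knock-in ranged from 0.45 to 6.70 points, and its interval excluded 0 only when peaks up to 500 bp apart counted as shared, a setting in which 1 peak can match both members of a close pair. The knock-in difference from the highest-scoring knockout peaks ranged from -2.04 to -0.58 points, and its interval included 0 with a gap of 20000 bp, the higher-scoring 50%, close peaks joined and the sex chromosomes included. The median percentile of grouped minus single peaks was between 1.24 and 5.23 in the alternatives. No paired analysis was possible because there is a single library per genotype, so leaving out a replicate could not be done either. With depth unknown, a missing peak does not show an unbound site.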

Other observations

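At gaps of 1 to 2 kb, both neighbours were found in the wild type in 11 of 39 knockout pairs of neighbours (28.2%, exact 95% interval 15.0 to 44.9), a class singled out after its values were seen. The share was 6.38% (1.34 to 17.5) at gaps of up to 1 kb, 8.70% (3.83 to 16.4) at 2 to 5 kb and 5.81% to 7.37% in the classes beyond 5 kb; the interval at 1 to 2 kb overlaps those of the classes on either side. With the knock-in it was 20.5% (9.30 to 36.5) at 1 to 2 kb, and its intervals overlapped those of the other classes under 10 kb. The 11 pairs lay on 7 chromosomes, and the knock-in had both peaks in 5 and 1 peak in 6. They include the named pairs on chromosomes 16, 7 and 4. Others were on chromosome 1 from 133597022 to 133599354, with knockout scores of 500.67 and 118.46 and wild-type scores of 167.66 and 95.51, and on chromosome 5 from 121900002 to 121901680, with 307.08 and 153.91 in the knockout and 92.6 and 101.62 in the wild type. The latter pair had its higher peak at different ends in the 2 lists.

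Of the 173 wild-type peaks inside knockout groups, 1 overlapped no knockout peak. It lay on chromosome 8 from 91190380 to 91190762 with a wild-type score of 64.08, between the knockout peaks of a pair from 91186209 to 91192792. That pair began 24431 bp past the end of the group of 3 on chromosome 8 that had no wild-type or knock-in peak.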
